A study of Saccharomyces cerevisiae with 8 samples.

Results

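The genes described here are *JEN1*, *CYB2*, *DLD1*, *CYC1*, *FBP1*, *PCK1*, *ICL1*, *MLS1*, *ADH2* and *ACS1*, which serve lactate use, respiration, gluconeogenesis and the handling of carbon compounds shorter than sugars. They were chosen by name because the cells grew on lactic acid before galactose was added, and they are 10 of the 6002 nuclear protein-coding genes of the R64 annotation. Peaks of nucleosome-sized DNA were available for 4 haploid W303 strains, each with 1 input library (all nucleosomes) and 1 anti-Flag ChIP library (nucleosomes with 3Flag-Cse4). In all 4 strains the endogenous *CSE4* gene was deleted and *3Flag-CSE4* under the *CSE4* promoter was integrated at *URA3*, so the strain called *3Flag-CSE4* makes the tagged protein from its native promoter, which is called the native level here. The strain *psh1Δ 3Flag-CSE4* also lacks *PSH1*. Its Cse4 is likewise called native level, which names the promoter and not the amount of protein, since the study reports a little mislocalized Cse4 in it. The strain *pGAL-3Flag-CSE4* carries a further copy of *3Flag-CSE4* under the galactose-induced GAL promoter, at *LEU2*, and *psh1Δ pGAL-3Flag-CSE4* has both changes. All cultures, controls included, were asynchronous and received 2% galactose for 2 h, so no library shows these genes in lactic acid alone or in glucose. Input peaks over *PSH1* numbered 8 in both strains that have the gene and 0 in both *psh1Δ* strains.

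Cse4 is the yeast form of CENP-A, the histone H3 variant of the centromere, and Psh1 is a ubiquitin ligase that marks Cse4 outside centromeres for destruction. In yeast, lactate enters through the Jen1 transporter and is oxidized to pyruvate by the mitochondrial lactate dehydrogenases Cyb2 and Dld1, which pass electrons to cytochrome c. Growth without sugar then needs gluconeogenesis and the glyoxylate cycle. The genes for these pathways are repressed by glucose through Mig1, which Snf1 counteracts. Activators such as Cat8, Sip4, Adr1 and the Hap complex switch them on. Several of these promoters are textbook cases of regulated nucleosomes, *ADH2* above all.

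Overexpressed Cse4 was found in the upstream regions of these genes about as often as over the genome, and at few of their start codons. In *psh1Δ pGAL-3Flag-CSE4* all 10 genes had a ChIP peak within 500 bp upstream, as did 94.2% of all protein-coding genes. *JEN1* and *PCK1* alone had one within 50 bp of the start codon, where 73.7% of all protein-coding genes had one. So did 58.1% of those with over 500 bp to the next gene upstream, and 6 of 12, 11 of 24 and 5 of 13 genes of 3 related lists. That window was chosen after the values were seen, and from 150 bp upstream to 50 bp inside 5 of the 10 had one, against 87.2%. Input peaks of the same strain were also less frequent within 50 bp of the start, at 3 of the 10 against 68.4%. In *pGAL-3Flag-CSE4*, in cells that still have Psh1, 5 genes had an upstream peak (49.1% of all genes did): *JEN1*, *DLD1*, *FBP1*, *ADH2* and *ACS1*. *PCK1* and *MLS1* had no ChIP peak in that strain in any window, and no gene of the 10 had one with Cse4 at its native level, with or without Psh1. A peak here is an interval above 1 fixed height of centromere-scaled coverage, so a gene without one may still have had signal under that height.

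The DNA under these upstream peaks is given first, because the results below turn on where the peaks lie in the promoters. The first set holds the 5 upstream peaks of *pGAL-3Flag-CSE4*, read on the strand of the gene, in R64 (sacCer3) coordinates. They lie at chrXI:21910-21970 (plus strand), chrIV:147930-148030 (minus), chrXII:875040-875120 (minus), chrXIII:874820-874880 (minus) and chrI:45160-45220 (minus). Capitals mark a match to one of 6 promoter motifs, which are spelled out further below, and the match in *FBP1* is the CCAAT box bound by the Hap complex.
JEN1: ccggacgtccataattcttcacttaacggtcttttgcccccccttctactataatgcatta
DLD1: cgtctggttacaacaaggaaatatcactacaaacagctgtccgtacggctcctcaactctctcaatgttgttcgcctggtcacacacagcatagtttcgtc
FBP1: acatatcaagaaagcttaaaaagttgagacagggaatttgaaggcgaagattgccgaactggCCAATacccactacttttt
ADH2: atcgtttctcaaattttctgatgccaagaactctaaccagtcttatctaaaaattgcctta
ACS1: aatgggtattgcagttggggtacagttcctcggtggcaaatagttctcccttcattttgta

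The second set holds the other 5 genes, for which the upstream peak of *psh1Δ pGAL-3Flag-CSE4* nearest the start codon is shown. They lie at chrXIII:167370-167590 (minus strand), chrX:525990-526060 (plus), chrXI:630970-631050 (plus), chrV:287110-287380 (minus) and chrXIV:406010-406110 (plus). Capitals mark CCAAT boxes and cores of the Adr1 site in *CYB2*, and in *ICL1* a carbon source response element, the site of Cat8 and Sip4, followed by CCAAT boxes, one of them on the opposite strand. Over the 10 peaks the A+T content ran from 43.7% in *CYC1* to 70.4% in *PCK1*.
CYB2: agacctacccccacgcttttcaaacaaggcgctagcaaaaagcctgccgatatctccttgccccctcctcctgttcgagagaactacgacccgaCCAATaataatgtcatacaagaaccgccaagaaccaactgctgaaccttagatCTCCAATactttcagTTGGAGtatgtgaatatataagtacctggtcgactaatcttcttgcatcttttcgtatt
CYC1: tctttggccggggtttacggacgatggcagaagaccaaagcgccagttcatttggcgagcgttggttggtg
PCK1: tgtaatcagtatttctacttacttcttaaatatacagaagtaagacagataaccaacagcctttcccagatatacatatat
ICL1: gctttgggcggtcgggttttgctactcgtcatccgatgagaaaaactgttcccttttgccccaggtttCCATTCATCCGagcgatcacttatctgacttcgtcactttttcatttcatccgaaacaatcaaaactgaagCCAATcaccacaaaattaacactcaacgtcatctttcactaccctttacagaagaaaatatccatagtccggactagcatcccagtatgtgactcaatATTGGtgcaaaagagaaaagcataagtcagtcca
MLS1: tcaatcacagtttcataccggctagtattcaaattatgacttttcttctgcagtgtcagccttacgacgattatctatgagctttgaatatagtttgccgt

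The genes lie on 8 chromosomes, with *JEN1* and *PCK1* both on chromosome XI and *CYB2* and *ADH2* both on XIII. Their reading frames ran from 330 bp (*CYC1*) to 2142 bp (*ACS1*), and their promoters were long: 9 of the 10 (90.0%), all but *CYB2*, had over 500 bp to the next gene upstream, compared with 41.3% of all protein-coding genes. The median gap was 782 bp, against 434.5 bp for all genes. *JEN1* had the longest, 3894 bp, and *CYB2* the shortest, 314 bp, to a small tandem gene. Other lists of genes are therefore set beside the 10 below, and so are the 2477 protein-coding genes with a gap over 500 bp.

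The lactate genes came first in the pathway and differed from each other. *JEN1* (YKL217W, chrXI:22234-24084, plus strand), the lactate transporter, had 1 upstream ChIP peak of 61 bp centred 294 bp before the first base of its reading frame in *pGAL-3Flag-CSE4*. In *psh1Δ pGAL-3Flag-CSE4* the same place was covered by 1 peak of 451 bp, centred 299 bp upstream, which was the widest ChIP peak at any of the 10 genes. It reached from 524 to 74 bp upstream and so took in most of the 500 bp window. *JEN1* also had a peak of 61 bp just inside the reading frame, centred 56 bp past its first base, and a peak at the stop codon, both found without Psh1 but not with it.

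*CYB2* (YML054C, chrXIII:165533-167308, minus strand), the L-lactate dehydrogenase, had no upstream ChIP peak under overexpression with Psh1 and 2 without it. The nearer one was 221 bp wide and centred 172 bp upstream, between *CYB2* and its tandem neighbour, and the farther one was centred inside that neighbour. *DLD1* (YDL174C, chrIV:145826-147589, minus strand), the D-lactate dehydrogenase, had 1 peak in *pGAL-3Flag-CSE4*, centred 391 bp upstream and 101 bp wide. This peak lay nearer to the start of the divergent gene *PAR32*, at 211 bp, than to that of *DLD1*, so the gene to which it belongs cannot be told apart. The *psh1Δ* strain had a peak at nearly the same place, centred 396 bp upstream, and a second one 206 bp upstream on the side of *DLD1*. *CYC1* (YJR048W, chrX:526335-526664, plus strand), the main cytochrome c and the electron acceptor of both dehydrogenases, had no upstream peak in *pGAL-3Flag-CSE4* and 1 of 71 bp in the *psh1Δ* strain, centred 310 bp upstream.

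The gluconeogenic pair split. *FBP1* (YLR377C, chrXII:873746-874792, minus strand), fructose bisphosphatase, had an upstream peak in both strains with pGAL, centred 288 bp upstream (81 bp wide) with Psh1 and 293 bp upstream (131 bp wide) without it. *PCK1* (YKR097W, chrXI:631152-632801, plus strand), phosphoenolpyruvate carboxykinase, had none in any window with Psh1. Without Psh1 it had 2 upstream peaks, centred 322 and 142 bp upstream, and 1 centred 48 bp past the first base of the reading frame. Both enzymes bypass the irreversible steps of glycolysis, and only *FBP1* had an upstream ChIP peak in both strains. The *FBP1* peak lay about as near to the divergent tRNA gene *YNCL0047W*, at 296 bp with Psh1 and 291 bp without it. The gene to which it belongs therefore cannot be told apart.

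The glyoxylate cycle genes had upstream ChIP peaks only where *PSH1* was deleted. *ICL1* (YER065C, chrV:285241-286914, minus strand), isocitrate lyase, had 1 of 271 bp centred 331 bp upstream. *MLS1* (YNL117W, chrXIV:406358-408022, plus strand), malate synthase, had 2, centred 298 and 463 bp upstream and of 101 and 91 bp. The farther of these was nearer to the divergent gene *DCP2*, at 331 bp.

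*ADH2* and *ACS1*, which feed ethanol and acetate into the cycle, had upstream peaks in both strains with pGAL. *ADH2* (YMR303C, chrXIII:873291-874337, minus strand), the alcohol dehydrogenase that oxidizes ethanol, had its only *pGAL-3Flag-CSE4* peak 513 bp upstream, which reached into the 500 bp window by an edge and lay 137 bp from the divergent gene *UBP15*. In *psh1Δ pGAL-3Flag-CSE4* it had 3 upstream peaks, centred 513, 328 and 168 bp upstream and 91 to 121 bp wide, the most of the 10 genes. *ACS1* (YAL054C, chrI:42881-45022, minus strand), acetyl-CoA synthetase, had 1 peak in each strain, 168 bp upstream (61 bp) with Psh1 and 178 bp upstream (121 bp) without it. Its divergent neighbour *FLC2* was 709 and 699 bp away. The plot of peaks around the starts shows these positions together.

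**Figure D1:**
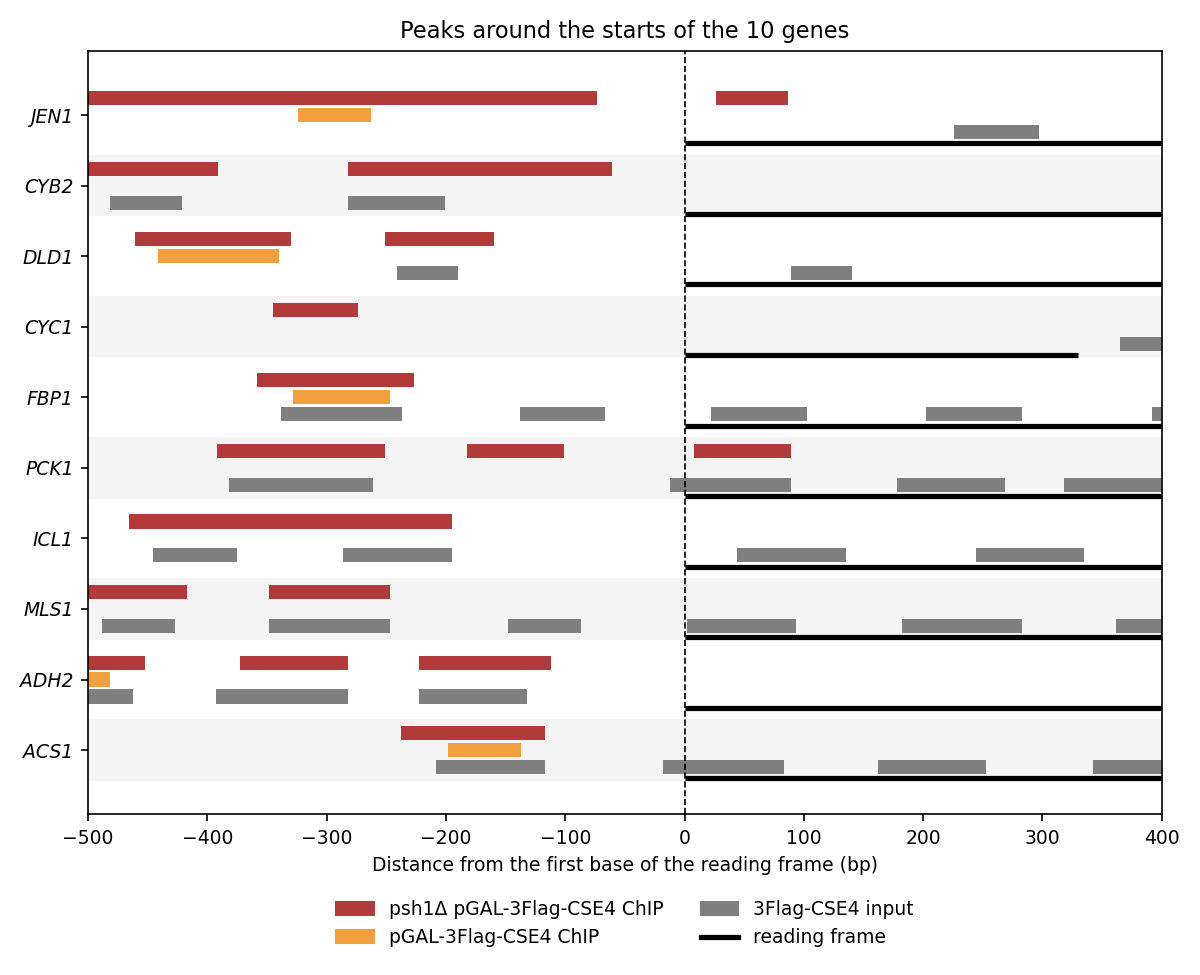
Peaks around the starts of the 10 genes, with the distance from the first base of the reading frame in bp on the horizontal axis (cut at 500 bp upstream and 400 bp inside) and 1 band per gene. Bars are ChIP peaks of *psh1Δ pGAL-3Flag-CSE4* (red) and *pGAL-3Flag-CSE4* (orange) and input peaks of *3Flag-CSE4* (grey), and the black line is the reading frame; all 5 orange bars lie within the span of a red bar, and no red bar crosses the start.

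Counted by window, the 10 genes were close to the genome upstream, above it downstream and below it in the reading frame. Under overexpression with Psh1, upstream ChIP peaks were present at 5 of the 10 (95% Wilson interval 23.7% to 76.3%), against 49.1% of all protein-coding genes. Without Psh1 they were present at 10 of 10 (72.2% to 100%), against 94.2%. Among genes with an upstream gap over 500 bp these shares were 43.9% and 91.8%. Downstream of the stop codon, 6 of 10 had a peak with Psh1, against 41.3%, and 10 of 10 without it, against 79.4%. In the reading frame the counts were 1 of 10, against 22.0%, and 6 of 10, against 74.8%. A share of 10 genes has a wide interval that held the share of the genome in each of these 3 windows.

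At native Cse4 levels, none of the 10 had a ChIP peak in any of the 3 windows. The shares over all protein-coding genes were themselves small: with Psh1 they were 0.117% upstream, 0% in the reading frame and 0.250% downstream, and without it 0.333%, 0.167% and 0.616%. Both lists hold few peaks (17 and 66). *CYC1*, the nearest of the 10 to a centromere, lay 90.1 kb from it.

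The downstream peaks in *pGAL-3Flag-CSE4* were at *JEN1*, *CYB2*, *CYC1*, *FBP1*, *ICL1* and *ACS1*. Their centres lay 241, 253, 306, 176 and 161 bp past the last base of the reading frame at the first 5 of these. The *CYB2* peak was the widest ChIP peak at the 10 genes in this strain, at 201 bp. At *ACS1* the peak was centred 29 bp inside the reading frame and reached a single base beyond it, so it is the same peak that gives the only count within a reading frame. *CYB2*, *CYC1* and *ICL1* thus had a peak in the downstream window but none upstream while Psh1 was present, and *DLD1* and *ADH2* had the reverse. The gap to the convergent gene was 206 bp at *CYB2* (*SPC2*) and 219 bp at *CYC1* (*UTR1*), so both peaks were centred inside that gene. With windows cut at the neighbouring gene, 5 of the 10 had a downstream peak in this strain in place of 6. In *psh1Δ pGAL-3Flag-CSE4* it was 9 in place of 10.

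**Figure D2:**
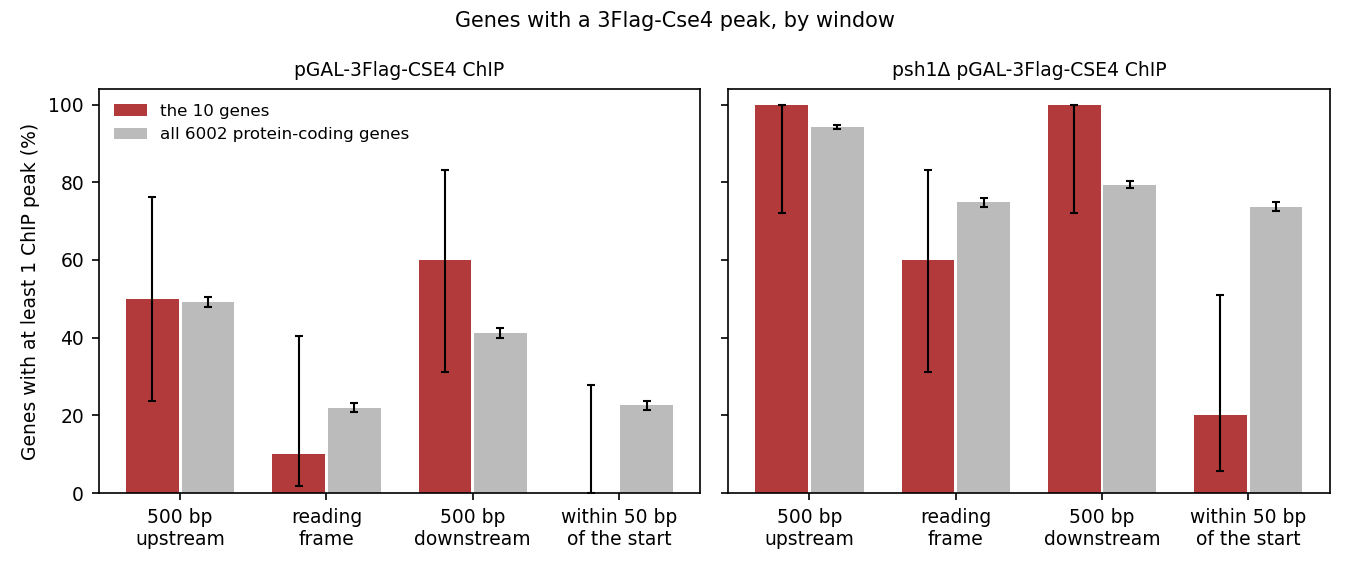
Percent of genes with at least 1 ChIP peak in each window (vertical axis), for the 10 genes (red) and all 6002 protein-coding genes (grey), in *pGAL-3Flag-CSE4* (left) and *psh1Δ pGAL-3Flag-CSE4* (right). Error bars are 95% Wilson intervals for counting error; the red interval takes in the grey bar in each pair except within 50 bp of the start in the *psh1Δ* strain, at 20.0% and 73.7%.

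Few of the 10 genes had a ChIP peak at the start codon itself. Within 50 bp of the first base of the reading frame, a window chosen after the values were seen, 0 of the 10 genes had a ChIP peak in *pGAL-3Flag-CSE4*, against 22.6% of all protein-coding genes. In *psh1Δ pGAL-3Flag-CSE4* 2 of the 10 had one (interval 5.67% to 51.0%), against 73.7%. At the first base itself no gene of the 10 was under a peak in either strain, whereas 16.3% and 56.2% of all genes were. The peaks of the 10 were most frequent 340 bp upstream, where 8 of the 10 were covered in *psh1Δ pGAL-3Flag-CSE4*, and those of all genes 220 bp upstream, where 59.6% were covered. Genes with an upstream gap over 500 bp had fewer peaks near the start than the genome, 10.1% with Psh1 and 58.1% without it. The first of these shares lay inside the interval of the 10 genes (up to 27.8%) and the second above it. Because the window was set after seeing the data, no test is given. The annotation marks start codons and not transcription start sites, so the length of the leader was not taken into account.

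The 2 exceptions, *JEN1* and *PCK1*, are the 2 genes on chromosome XI. There the *psh1Δ pGAL-3Flag-CSE4* list was denser, with 1.82 ChIP peaks per kb compared with 0.964 to 1.33 on the other 15 chromosomes, and the share of genes with a ChIP peak near the start was 86.5% there. The part of chromosome XI in the 2 start peaks was not tested. The 8 genes on other chromosomes had no ChIP peak within 50 bp of the start in either strain.

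In the inputs, too, fewer of the 10 genes than of the genome had a peak near the start. Near the start, 5 of the 10 had an input peak in *3Flag-CSE4*, against 82.3% of all protein-coding genes, and 4 of 10 after *PSH1* deletion, against 79.5%. Under overexpression the counts were 5 of 10 with Psh1, against 85.7%, and 3 of 10 without it, against 68.4%. The intervals of these 4 shares were 23.7% to 76.3%, 16.8% to 68.7%, 23.7% to 76.3% and 10.8% to 60.3%. Genes with an upstream gap over 500 bp had 74.2%, 69.7%, 78.5% and 57.0%, the first and last of which lay inside the intervals. Of the related lists described below, genes of glycolysis and fermentation had a lower share than the 10 in *3Flag-CSE4*, 1 of 13 (7.69%). The other lists had higher shares, 9 of 12 regulators (75.0%) and 16 of 24 further pathway genes (66.7%), against 82.3% of all protein-coding genes. A low input count near the start was thus shared with the glycolysis and fermentation list. The counts also depended on the window. At the first base alone they were 2, 2, 3 and 2 of 10, against 60.1%, 57.2%, 63.8% and 49.3%, and from 150 bp upstream to 50 bp inside they were 6 of 10 in every input, against 87.2%, 85.1%, 90.1% and 76.7%. The part of these input counts in the ChIP counts near the start was not tested. *FBP1*, *ICL1* and *MLS1* did have an input peak in *3Flag-CSE4* whose first edge lay within 50 bp of the start, inside the reading frame, and *PCK1* and *ACS1* had one that crossed it. Of these 5 genes, *PCK1* alone had a ChIP peak there.

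**Figure D3:**
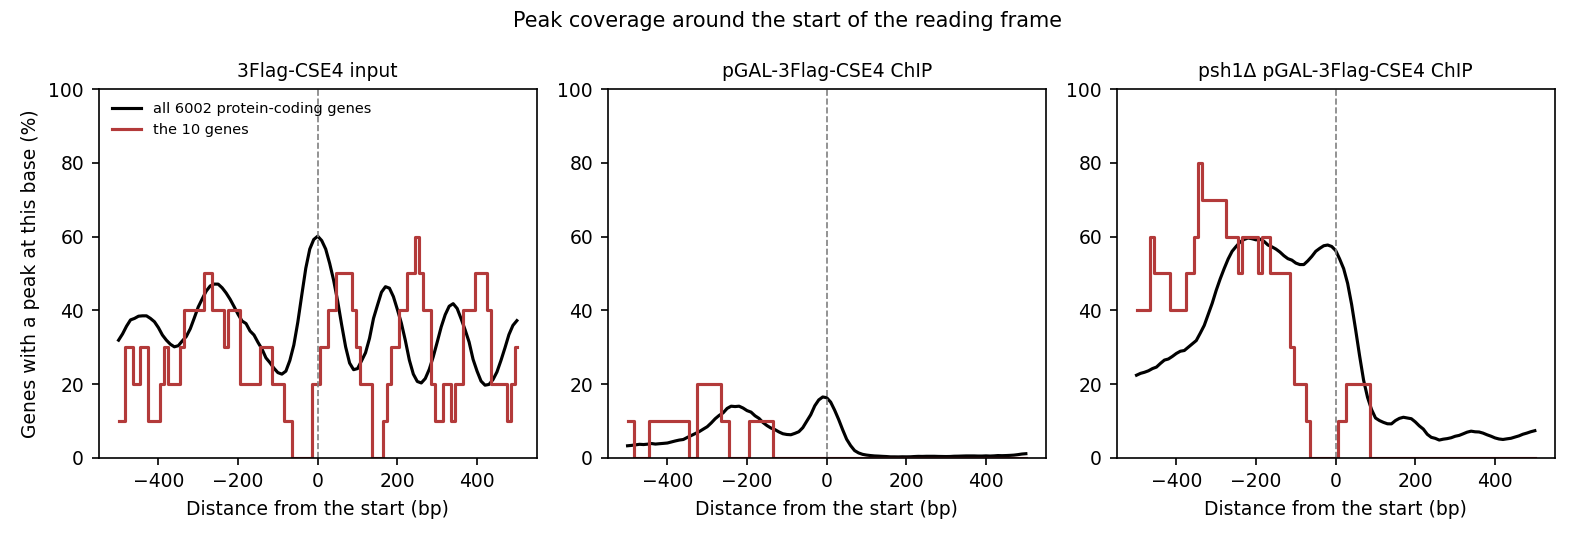
Percent of genes under a peak at each base (vertical axis), from 500 bp upstream to 500 bp inside the reading frame in steps of 10 bp, for the 10 genes (red) and all 6002 protein-coding genes (black), in *3Flag-CSE4* input, *pGAL-3Flag-CSE4* ChIP and *psh1Δ pGAL-3Flag-CSE4* ChIP. In the last panel the red line is at 80.0% at 340 bp upstream and at 0% at the start, where the black line is at 56.2%.

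No ChIP peak was found in the interior of the 10 reading frames. The 7 peaks that touched a reading frame in *psh1Δ pGAL-3Flag-CSE4* lay at either end: 56 (*JEN1*) and 48 bp (*PCK1*) past the first base, and at the 3′ ends of *JEN1*, *FBP1*, *ICL1*, *MLS1* and *ACS1*. With the first and last 100 bp left out, again a choice made after seeing the data, 0 of the 10 had a peak (interval up to 27.8%), against 37.2% of the 5868 protein-coding genes longer than 200 bp. Among the lists of related genes described below, 0 of 13 genes of glycolysis and fermentation, 3 of 24 further pathway genes (12.5%) and 3 of 12 regulators (25.0%) had one, so an empty interior is not particular to the 10. In *pGAL-3Flag-CSE4* the numbers were 0 of 10 and 2.18%. *DLD1*, *CYB2*, *CYC1* and *ADH2* had no ChIP peak at any base of the reading frame in either strain, although all 4 had upstream and downstream peaks without Psh1.

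Every ChIP peak at these genes in *pGAL-3Flag-CSE4* was found again without Psh1. The 11 distinct peaks over the windows of the 10 genes were all overlapped by a *psh1Δ pGAL-3Flag-CSE4* peak (100%), and over all nuclear peaks the share was 99.8%. In the other direction 11 of the 34 *psh1Δ pGAL-3Flag-CSE4* peaks (32.4%) overlapped one of *pGAL-3Flag-CSE4*, compared with 25.3% of all nuclear peaks. Peaks at the 10 genes had a median width of 81 bp with Psh1 (61 to 201 bp) and 111 bp without it (41 to 451 bp). The medians over all nuclear peaks were 71 and 91 bp. With 1 library per strain, a difference between strains cannot be told apart from a difference between cultures or libraries.

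Most of the ChIP peaks lay where a nucleosome was listed with Cse4 at its native level. Of the 11 peaks in *pGAL-3Flag-CSE4*, 8 were centred no more than 73 bp from the centre of a *3Flag-CSE4* input peak (72.7%), compared with 87.1% of all nuclear peaks of that list. In *psh1Δ pGAL-3Flag-CSE4* the numbers were 26 of 34 (76.5%) and 78.1%. The exceptions in *pGAL-3Flag-CSE4* were the upstream peaks of *JEN1* and *DLD1*, 555 and 175 bp from the nearest input centre, and the downstream peak of *ICL1*, at 105 bp. *JEN1* and *CYC1* had no upstream input peak at all in *3Flag-CSE4*, and in the input of *psh1Δ pGAL-3Flag-CSE4* each had one at nearly the place of its ChIP peak, centred 289 and 305 bp upstream. At *ADH2*, by comparison, input peaks centred 513, 333 to 338 and 173 to 178 bp upstream were listed in all 4 strains, within 10 bp of the centres of the 3 ChIP peaks.

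Most of the 10 genes had at least 1 input peak upstream, but the mean number per gene was below that of the genome in each input, by least in *psh1Δ pGAL-3Flag-CSE4*. The mean number per upstream window was 1.70 in *3Flag-CSE4*, against 2.45 over all protein-coding genes, and 1.70 in *pGAL-3Flag-CSE4*, against 2.61. In the inputs without Psh1 it was 1.80 at native Cse4 levels, against 2.26, and 1.90 under overexpression, against 1.94. In *3Flag-CSE4* input peaks covered 24.6% of the upstream bases of the 10 genes, against 36.9%. At native Cse4 levels 8 of the 10 genes had one with Psh1, against 93.9% of all protein-coding genes, and 8 without it, against 93.0%. Under overexpression 9 had one with Psh1, against 94.6%, and 8 without it, against 88.5%. *CYC1* had none except in *psh1Δ pGAL-3Flag-CSE4*, where it had 1. Downstream, 9 of 10 genes had an input peak in that strain, against 64.2%. In each of the other strains all 10 did, against 93.3% in *3Flag-CSE4*, 90.2% after *PSH1* deletion and 94.1% after overexpression with Psh1.

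Input peaks in the reading frames were fewest in the strain with both changes, as they were over the genome. The 10 reading frames held 56 such peaks in *3Flag-CSE4* and 37 after *PSH1* deletion. Under overexpression they held 43 with Psh1 and 22 without it. In the same order, over all protein-coding genes, the mean per reading frame was 5.26, 3.90, 5.09 and 2.06. The genes with at least 1 such peak numbered 9, 9, 9 and 6 of 10, against 90.9%, 88.6%, 90.7% and 77.1%. The lists themselves hold 40108, 31268, 39937 and 18908 input peaks, and the settings behind them are not given in the sources used here. The number of peaks therefore cannot be told apart from the calling of a list. The study lists more input reads for *psh1Δ pGAL-3Flag-CSE4* than for *3Flag-CSE4*, and the part of depth in these counts was not tested.

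The 2 genes on chromosome XI differed from the others in this count. *JEN1* had 7, 5, 3 and 7 input peaks in its reading frame, in the order of strains used above, and *PCK1* had 6, 6, 10 and 8. *ACS1* had 12, 8, 7 and 1, and *MLS1* had 10, 8, 10 and 4. *ICL1* had 7, 3, 4 and 0, *FBP1* had 6, 2, 4 and 1, and *ADH2* had 4, 2, 2 and 0. *CYB2* had 2, 2, 2 and 1, *DLD1* had 2, 1, 1 and 0, and *CYC1*, the shortest, had 0 in every strain. The 8 genes on other chromosomes together had 43, 26, 30 and 7. On chromosome XI the *psh1Δ pGAL-3Flag-CSE4* input list held 3.48 peaks per kb, against 1.03 to 1.86 on the other chromosomes, while in *3Flag-CSE4* the values were 3.44 against 2.89 to 3.43. In *psh1Δ 3Flag-CSE4* input peaks covered 67.7% of chromosome XI, against 15.8% to 27.4% elsewhere, and the peaks reaching into or past the ends of *JEN1* and *PCK1* were as wide as 811 and 1531 bp. The part of chromosome XI in the counts of *JEN1* and *PCK1* was not tested. In *ADH2* 79.0% of the 24 bp stretches of the reading frame were unique in the genome, the least of any window of the 10 genes, and the effect of this on its counts was not tested.

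**Figure D4:**
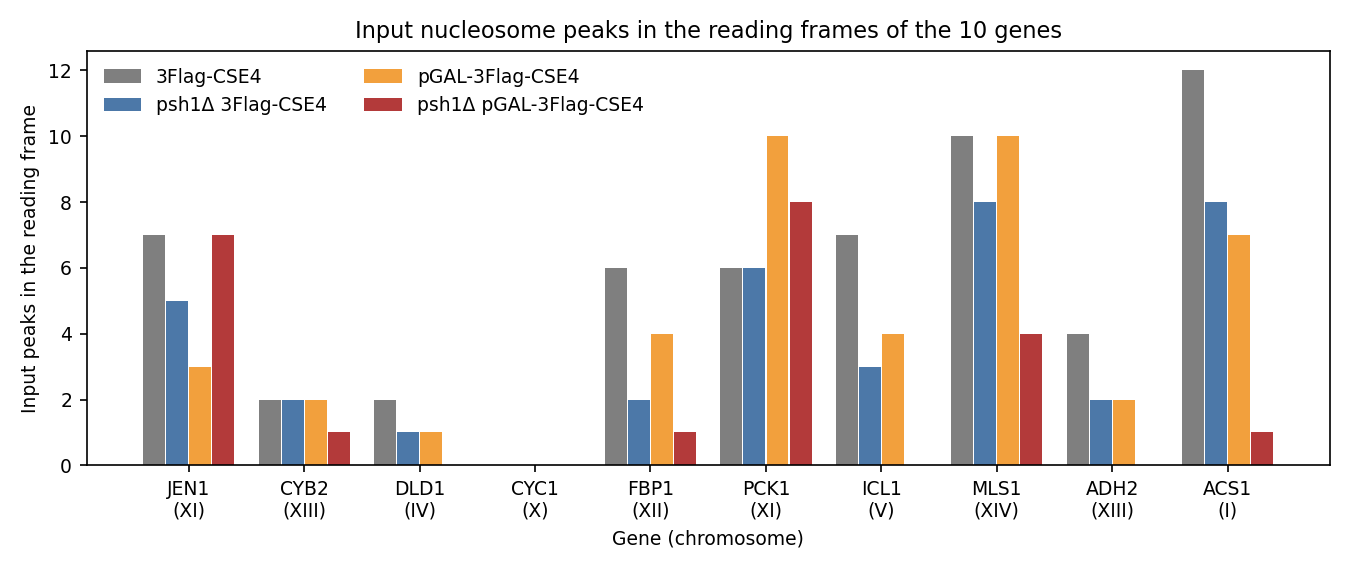
Number of input peaks in each reading frame (vertical axis) in *3Flag-CSE4* (grey), *psh1Δ 3Flag-CSE4* (blue), *pGAL-3Flag-CSE4* (orange) and *psh1Δ pGAL-3Flag-CSE4* (red), 1 library each, with the chromosome under each gene. *JEN1* and *PCK1* on chromosome XI have 7 and 8 peaks in *psh1Δ pGAL-3Flag-CSE4*, whereas the other genes have 4 or fewer.

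Peak for peak, part of the reading-frame input peaks of *3Flag-CSE4* were not overlapped by a peak in the other inputs. Of the 43 input peaks in the 8 reading frames off chromosome XI, 8 were overlapped by an input peak of *psh1Δ pGAL-3Flag-CSE4* (18.6%, interval 9.74% to 32.6%), compared with 34.3% over all protein-coding genes off that chromosome. In *pGAL-3Flag-CSE4* 28 were overlapped (65.1%, 50.2% to 77.6%), compared with 83.7%. In *psh1Δ 3Flag-CSE4* 25 were (58.1%, 43.3% to 71.6%), compared with 64.9%. Peaks of 1 gene share their source, so these intervals are too narrow for a statement about genes.

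The upstream 500 bp were searched on both strands for 6 motifs that regulators of these genes are known to bind. The carbon source response element of Cat8 and Sip4 was taken as CC, any 2 bases, T, any 3 bases and CCG. It was present upstream of *DLD1*, *PCK1*, *ICL1*, *MLS1*, *ADH2* and *ACS1*, 6 of the 10, against 7.25% of all protein-coding genes. The CCAAT box of the Hap complex was present at 8 of 10, against 62.4%, and at *CYC1* and *ADH2* no match was found. The Adr1 core TTGGAG was present at *JEN1*, *CYB2*, *DLD1* and *ADH2*, against 18.5%, and the TATA box TATAAA at 6 of 10, against 60.5%. GCGGGG, the Mig1 core (5.76% of all genes), and the Hap1 site, searched as CGG, any 3 bases, TA, any base and CGG (0.350%), had no match in these windows. Matches overlapped each other at *JEN1* and *CYB2* (CCAAT and the Adr1 core) and at *MLS1* (CCAAT and the response element). A match is a string of letters and was not tested for binding. A site that departs from the string by 1 base is not counted, so the lack of a match, as at *CYC1*, does not show that a site is absent.

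Response elements lay in the *psh1Δ pGAL-3Flag-CSE4* peaks of *PCK1*, *ICL1*, *MLS1* and *ADH2*. In *ICL1* the element from 398 to 388 bp upstream is the first run of capitals in its sequence above. In *ADH2* the element from 306 to 296 bp upstream and the Adr1 core from 291 to 286 bp both overlapped the peak centred 328 bp upstream, while a second Adr1 core, from 277 to 272 bp, lay just outside it. The elements of *DLD1* (284 to 274 bp upstream) and *ACS1* (425 to 415 and 371 to 361 bp) were outside every ChIP peak. Over the 10 genes, 5 of 9 elements were in a ChIP peak found without Psh1 and 0 of 9 in one found with it. Those peaks covered 44.6% and 6.44% of the upstream bases of the 10 genes, close to the 45.2% and 8.32% of all genes. Of the 11 CCAAT boxes, 9 were in a peak without Psh1 and 1 in a peak with it. For the 7 Adr1 cores the counts were 5 and 0. Of the 6 TATA boxes, 4 were in a peak without Psh1 and 0 in a peak with it. The part of peak coverage in these counts was not tested.

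Other genes of the same biology all had an upstream ChIP peak under overexpression without Psh1, and a smaller share had one with it. The 12 regulators (*CAT8*, *SIP4*, *RDS2*, *ADR1*, *HAP1*, *HAP2*, *HAP3*, *HAP4*, *HAP5*, *SNF1*, *SNF4* and *MIG1*) had an upstream ChIP peak at 4 of 12 with Psh1, namely *RDS2*, *HAP3*, *HAP4* and *HAP5*, and at 12 of 12 without it, both under overexpression. A list of 24 further genes of lactate, acetate, glyoxylate and respiratory metabolism had 8 and 24. A list of 13 genes of glycolysis and fermentation, the opposite direction of carbon flow, had 6 and 13. In this order the shares with Psh1 were 33.3%, 33.3% and 46.2%, against 49.1% of all protein-coding genes. Without Psh1 the share of all protein-coding genes was 94.2%. None of these 49 genes had a ChIP peak in its reading frame in *pGAL-3Flag-CSE4*, against 22.0% of all protein-coding genes. Among genes with an upstream gap over 500 bp the share was 11.1%, and the 10 genes had the 1 at the end of *ACS1*. Near the start the 3 lists had 0 genes with a peak with Psh1, against 22.6% of all protein-coding genes. Without it they had 6 of 12, 11 of 24 and 5 of 13, against 73.7%. The low count near the start is therefore not shown to be particular to the 10 genes. Downstream in *pGAL-3Flag-CSE4* the lists had 7 of 12, 13 of 24 and 13 of 13, the last with all of its genes against 41.3% of the genome and 6 of the 10 genes. *HAP1* alone of the regulators had no downstream peak in *psh1Δ pGAL-3Flag-CSE4*. At native Cse4 levels 1 gene of the 3 lists had an upstream peak, *CIT3*, a mitochondrial citrate synthase whose upstream window holds the centromere of its chromosome.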

How the data were processed

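Mononucleosome peak lists from 8 libraries were used, 1 input and 1 ChIP library for each of 4 strains, with groups taken from the sample labels. According to the study's methods, the authors mapped paired reads with BWA to sacCer3, kept proper pairs with a mapping score of at least 30 and inserts of 50 to 240 bp (SAMtools), subtracted the input, scaled each ChIP track to centromere coverage of the same strain, set the rDNA to 0, and called peaks with DANPOS2 above 1 fixed height. Strains were W303, whereas the reference is S288C. The deposited files give positions, at steps of 10 bp. Their score column was 0 throughout, so heights were not available to this work, and read depth per library was not used in the counts.

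A gene had a peak in a window when at least 1 bp overlapped its reading frame, or the 500 bp before or after it, in the R64 sequence with annotation R64-5-1. All peak ends lay within the R64 chromosomes. Shares have 95% Wilson intervals (SciPy 1.17.1, Python 3.11.15), which cover counting error only. No test between strains was possible with 1 library per group. The counting was tested on simulated data. All 10 genes are named, and genes of the 3 further lists only where 5 or fewer had or lacked a peak. The sequences shown are the upstream peak of *pGAL-3Flag-CSE4* where there was one, and otherwise the upstream peak of *psh1Δ pGAL-3Flag-CSE4* nearest the start. The genes, lists and motifs were chosen with earlier results of these data known. Alternatives were the peak centre inside the window, windows of 250 bp, peaks of at least 50 bp, windows cut at the neighbouring gene, and peaks within 50 bp merged.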

Additional observations from a re-analysis of the deposited data

How the results depend on the processing

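The counts of genes and peaks stayed within 1.5 times their reported value under most alternatives. With windows of 250 bp, 2 of the 10 genes (*FBP1* and *ACS1*) had an upstream ChIP peak in *pGAL-3Flag-CSE4* in place of 5, and the 3 windows held 7 distinct ChIP peaks in place of 11. Counting peak centres, using peaks of at least 50 bp, cutting windows at the neighbouring gene or merging peaks within 50 bp moved no count past that limit. The next alternatives were chosen after seeing the data. Without *JEN1* and *PCK1*, the 2 genes on chromosome XI, the reading-frame input peaks of *psh1Δ pGAL-3Flag-CSE4* numbered 7 in place of 22. The ChIP count near the start depended on the window: in *psh1Δ pGAL-3Flag-CSE4* it was 0 at the first base alone and 5 from 150 bp upstream to 50 bp inside (87.2% of all genes), and in *pGAL-3Flag-CSE4* it was 1 in that last window (30.9%). The input counts near the start moved as well, from 5 to 2 in *3Flag-CSE4*, from 4 to 2 after *PSH1* deletion and from 5 to 3 in *pGAL-3Flag-CSE4* at the first base alone, and from 3 to 6 in *psh1Δ pGAL-3Flag-CSE4* in the last window. Over all nuclear genes in place of protein-coding genes, the share with an upstream ChIP peak was 47.1% and 92.5% in the 2 strains. A background with and without dubious reading frames was not run, because the annotation used here does not mark them. No paired analysis was possible because each group has 1 library. The main limits are the 10 genes, the single library per group and the fixed peak height.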
